A study of Rattus norvegicus with 6 samples.

Results

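Cytotoxic effector and killer lectin receptor genes were followed in T cell nuclei of the rat colon. The list named 10 genes. These were the killer lectin receptors Klrd1, Klrc3, Klre1 and Klri1, the granule genes Gzma, Gzmb, Prf1 and Nkg7, the adaptor Clnk and the receptor Cd96. Of the 10, 9 had a row in the tables, and Nkg7 was not analysed here. They are 9 of the 15108 genes that all 6 tables share.

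Single nuclei RNA sequencing was run on flash-frozen colon of 9 male wild-type Wistar rats, 3 for each treatment. Sham rats drank water and received no capsule. Placebo rats drank 5% dextran sulfate sodium (DSS), which injures the colon epithelium, on the first 3 days and then took capsules without drug 2 times a day, 6 hours apart, from day 4 through day 7. PL8177 rats had the same DSS and the same schedule, with 50 µg PL8177, an agonist of the melanocortin 1 receptor, in each capsule. DSS colitis is a chemical injury of the mucosa, and the colon was taken after DSS had been replaced by water. The counts were of UMIs (unique molecular identifiers), where 1 UMI stands for 1 RNA molecule that was captured. They covered 120 sham, 802 placebo and 96 PL8177 T cell nuclei and 2464, 2959 and 3359 enterocyte nuclei. Cell types are those of the authors' tables. The tag in each nucleus name was taken as its library and so as its rat, since the labels do not list the rats.

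Killer lymphocytes, which are natural killer cells and cytotoxic T cells, kill a target cell by releasing perforin and granzymes from granules at the point of contact. Whether they do so is set by the balance of activating and inhibitory receptors, many of them lectin-like proteins encoded side by side in the natural killer gene complex. In the gut such cells sit within and beneath the epithelium, where intraepithelial lymphocytes carry many of the same receptors. The protein of Klrd1 (CD94) pairs with proteins of the Klrc (NKG2) family, and that of Klre1 pairs with those of Klri1 and Klri2. Clnk encodes an adaptor of the SLP-76 family below immune receptors, and CD96 binds CD155 on target cells. Gzma and Gzmb encode granule proteases and Prf1 the pore-forming perforin.

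The 4 lectin receptor genes are neighbours on rat chromosome 4. In the GRCr8 annotation, 7 protein-coding genes lie from Klre1 to Klri1, and all 7 carry a Klr name. Klrc1 and Klrc2 lie between Klrc3 and Klri1 there and had no row of their own in the tables, so Klrc3 counts may hold reads of these close relatives. Promoter windows of RefSeq (GRCr8, 250 bases before to 50 after the start) were found for 9 of the 10 listed genes, all but Klrd1. The windows of Klrc3 and Klri1 are shown because these 2 neighbours were found together in 31 nuclei, and those of Gzma and Cd96 because both hold RUNX letters. Capitals mark matches to 4 motifs searched on both strands, which were RUNX (TGTGGT), T-box (AGGTGT), AP-1 (TGANTCA) and ETS (AGGAAGT). Sequences are written 5′ to 3′ on the strand of the gene. The counts were made on Rnor 6.0, so these positions hold for GRCr8 only.
Klrc3, chr4:164798709-164799008, minus strand: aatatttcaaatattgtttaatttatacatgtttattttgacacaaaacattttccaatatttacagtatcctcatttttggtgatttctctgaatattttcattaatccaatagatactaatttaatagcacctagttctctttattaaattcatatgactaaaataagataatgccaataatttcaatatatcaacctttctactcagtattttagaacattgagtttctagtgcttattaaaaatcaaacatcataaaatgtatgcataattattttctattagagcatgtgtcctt
Klri1, chr4:164904819-164905118, minus strand: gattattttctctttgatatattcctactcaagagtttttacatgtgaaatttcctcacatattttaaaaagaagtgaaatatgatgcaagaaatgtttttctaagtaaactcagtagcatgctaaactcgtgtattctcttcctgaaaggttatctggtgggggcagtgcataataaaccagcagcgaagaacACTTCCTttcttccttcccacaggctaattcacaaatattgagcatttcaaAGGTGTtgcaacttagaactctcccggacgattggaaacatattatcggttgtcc
Gzma, chr2:46485647-46485946, minus strand: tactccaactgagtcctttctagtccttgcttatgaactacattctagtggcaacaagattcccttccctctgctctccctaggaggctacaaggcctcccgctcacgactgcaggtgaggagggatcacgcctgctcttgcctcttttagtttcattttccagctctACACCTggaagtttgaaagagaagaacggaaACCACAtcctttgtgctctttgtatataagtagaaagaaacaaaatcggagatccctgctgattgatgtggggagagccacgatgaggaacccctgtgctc
Cd96, chr11:68164676-68164975, plus strand: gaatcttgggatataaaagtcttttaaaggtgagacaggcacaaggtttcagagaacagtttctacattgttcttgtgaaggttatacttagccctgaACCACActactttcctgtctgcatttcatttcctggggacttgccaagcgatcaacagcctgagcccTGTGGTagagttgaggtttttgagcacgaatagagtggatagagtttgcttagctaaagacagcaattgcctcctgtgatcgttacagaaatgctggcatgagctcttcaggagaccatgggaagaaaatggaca
The RUNX letters were in the windows of 5 of the 9 genes (Nkg7, Gzma, Cd96, Gzmb and Prf1), against 17.3% of all 33469 promoter windows of this length. The T-box letters were in 2 of 9 (Gzma and Klri1), against 13.6% of all windows. The ETS letters were in 2 of 9 (Klri1 and Prf1), against 8.41%, and the AP-1 letters in Gzmb, against 7.33%. In Gzma the T-box letters began 82 bases and the RUNX letters 51 bases before the start. In Klri1 the ETS letters began 56 bases and the T-box letters 5 bases before it. The windows of Klrc3, Klre1 and Clnk held none of the 4 motifs. A match describes letters in the window and is not a measured binding site.

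The T cell label was compared with 13 T cell markers. In the libraries other than GR23 the summed markers stood at 24.5 to 58.2 UMIs per 10000 UMIs in T cell nuclei, against 0.148 to 0.868 in enterocyte nuclei of the 9 libraries. The placebo library GR23 stood apart. Its 685 T cell nuclei held 2.07 T cell marker UMIs per 10000 and 158 of 14 enterocyte markers, against 14.1 to 78.2 enterocyte marker UMIs in T cell nuclei of the other 8 libraries. Only 27 of the 685 had both a T cell marker UMI and enterocyte marker UMIs that did not outnumber those of T cells. Comparisons with placebo are therefore given with and without GR23. The same rule held for 60 of 74 T cell nuclei in GR12, 13 of 19 in GR13 and 15 of 27 in GR15. It held for 17 of 26 in GR22, 65 of 91 in GR24, 14 of 22 in GR41, 21 of 39 in GR43 and 18 of 35 in GR44. Summed enterocyte markers exceeded summed T cell markers in GR13, GR15, GR41, GR43 and GR44 too, at 78.2 against 36.7 per 10000 in GR44. T cell nuclei below are those of the authors' label, whether or not they met the rule. T cell nuclei of a library held 8070 to 779009 UMIs in all, with medians of 364 to 2091 UMIs per nucleus. Among 9790 distinct barcodes, 10 occurred in 2 or more libraries, and none was in both cell types of 1 library.

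The genes were found in a large share of T cell nuclei and in few enterocyte nuclei. In the 8 libraries other than GR23, 152 of 333 T cell nuclei had a UMI of at least 1 of the 9 genes, which is 45.6% (95% Clopper-Pearson interval 40.2 to 51.2). In enterocytes it was 77 of 8782 nuclei, or 0.877% (0.693 to 1.09), although the median depth was higher there, at 1051 UMIs per nucleus against 753. Intervals and floors cover counting error only. Nuclei were assigned to cell types from all their genes, so the contrast between cell types is a description and was not tested. Within GR23, the 27 nuclei with T cell markers gave 12 with at least 1 of the genes (44.4%, 25.5 to 64.7), and the other 658 gave 10 (1.52%, 0.731 to 2.78), which overlaps the enterocyte interval.

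In sham rats 53 of 120 T cell nuclei had at least 1 of the genes (44.2%, 35.1 to 53.5). In placebo rats it was 74 of 802 (9.23%, 7.31 to 11.4), and 52 of 117 (44.4%, 35.3 to 53.9) without GR23. In PL8177 rats it was 47 of 96 (49.0%, 38.6 to 59.4). Once GR23 was left out, the pooled shares of the 3 treatments lay within each other's intervals. These intervals do not cover the spread between libraries, so they do not compare the treatments. GR12 gave 74 of the 120 sham nuclei, and GR24 gave 91 of the 117 placebo nuclei without GR23. Over libraries the mean share was 48.7% ± 9.50 in sham, 36.6% ± 33.0 in placebo with GR23 and 45.8% ± 17.3 in PL8177 (SD, n = 3). The placebo libraries other than GR23 stood at 69.2% and 37.4%.

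Among sham libraries the share was 37.8% in GR12, 52.6% in GR13 and 55.6% in GR15. Among placebo libraries it was 69.2% in GR22, 3.21% in GR23 and 37.4% in GR24. Among PL8177 libraries it was 27.3% in GR41, 61.5% in GR43 and 48.6% in GR44. The highest and the lowest library were both placebo, so the spread within placebo spanned both other treatments. In enterocytes the share ran from 0.282% to 1.63% over the 9 libraries.

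**Figure D1:**
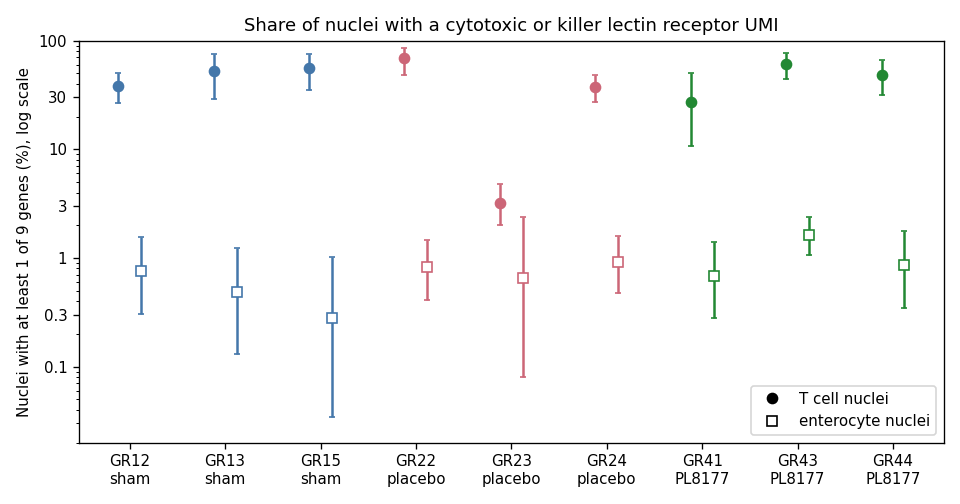
Share of nuclei with at least 1 UMI of the 9 genes (percent, log axis) in each library, as filled circles for T cell nuclei and open squares for enterocyte nuclei, with 95% Clopper-Pearson intervals and colour by treatment. T cell nuclei lie between 27.3% and 69.2% except in GR23 (3.21%), and enterocyte nuclei between 0.282% and 1.63%.

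Gene by gene, levels pooled over the nuclei of 9 libraries were many times higher in T cells than in enterocytes. Klri1 stood at 1.19 UMIs per 10000 in T cells (95% Poisson interval 1.00 to 1.39) and 0.0129 in enterocytes (0.00795 to 0.0196), a ratio of 92.2. Gzma stood at 0.616 (0.488 to 0.768) against 0.00306 (0.000993 to 0.00714), a ratio of 201. The ratios of Klrd1, Klrc3, Klre1, Clnk and Cd96 lay between these, from 97.9 for Clnk to 176 for Klrc3. Gzmb and Prf1 had 1 UMI each in enterocytes and 20 and 4 in T cells, too few for a ratio. Klri1 and Clnk were higher in T cells than in enterocytes in 9 of 9 libraries, Klrc3, Klre1 and Cd96 in 8, Klrd1 in 7, Gzma in 6, Gzmb in 5 and Prf1 in 2, and no gene was lower in T cells in any library. Of 9453 genes with at least 10 UMIs in T cells, 2.63% were higher in T cells in all 9 libraries and 6.98% in the 8 other than GR23. GR23 holds 779009 of the T cell UMIs and pulls the pooled T cell levels down. Without it in both cell types, Klri1 stood at 2.92 (2.47 to 3.43) in T cells against 0.0131 (0.00811 to 0.0200) in enterocytes, a ratio of 223, and Gzma at 1.33 (1.03 to 1.69) against 0.00250 (0.000680 to 0.00639), a ratio of 533. The ratios of the 7 genes rose by factors of 2.21 to 2.65 without GR23.

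For each lectin receptor the libraries of the 3 treatments overlapped. Klrd1, the invariant partner chain of the NKG2 receptors, stood at 0.298, 0 and 0.763 UMIs per 10000 in sham GR12, GR13 and GR15, at 1.68, 0.0642 and 2.11 in placebo GR22, GR23 and GR24, and at 0, 0.993 and 0.489 in PL8177 GR41, GR43 and GR44. Both placebo libraries other than GR23 lay above every sham and PL8177 library for Klrd1, and GR23 lay below most of them. In GR22, 7 of the 9 Klrd1 UMIs lay in 1 nucleus. A library at 0 still allowed a level of 3 UMIs in its total, which came to 3.72 per 10000 in GR13, 1.14 in GR15, 0.559 in GR22, 0.396 in GR24, 1.25 in GR41 and 0.497 in GR43.

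Klrc3, an NKG2 receptor chain, stood at 1.70, 0 and 3.05 in the sham libraries, 6.15, 0.116 and 1.45 in the placebo libraries and 1.66, 5.13 and 0.977 in the PL8177 libraries, in the same order of tags. One library of placebo (GR22) and one of PL8177 (GR43) stood above the rest. Klre1 stood at 0.553, 4.96 and 4.96 among sham libraries, at 1.68, 0.0899 and 1.98 among placebo and at 0, 1.49 and 3.42 among PL8177. Klri1, whose protein is the inhibitory partner of the Klre1 protein, stood at 1.96, 8.67 and 5.34 among sham libraries, at 6.52, 0.0642 and 1.98 among placebo and at 1.25, 3.97 and 1.47 among PL8177. For both, 2 of 3 sham libraries were among the highest, but GR12, which holds 234958 of the 269257 sham UMIs, was not. The GR13 values rest on 4 UMIs of Klre1 and 7 of Klri1. In GR15, 7 of the 14 Klri1 UMIs lay in 1 nucleus.

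The granule genes were sparser. Gzma stood at 1.02, 0 and 3.05 among sham libraries, at 3.73, 0.154 and 0 among placebo and at 0, 1.66 and 2.44 among PL8177, so each treatment had a library at 0. Gzmb had 20 UMIs in 12 T cell nuclei over the 9 libraries. It was highest in PL8177 GR44 at 1.95 per 10000 from 4 UMIs, followed by 0.497 in GR43 and 0.298 in sham GR12, and was 0 in 4 libraries. Prf1 had 4 UMIs in all, 2 in sham GR12 and 2 in PL8177 GR44, and none in 802 placebo nuclei.

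Clnk stood at 0.851, 2.48 and 4.96 among sham libraries, at 8.02, 0.231 and 3.56 among placebo and at 2.49, 2.32 and 1.47 among PL8177. It was found in every library, and both placebo libraries other than GR23 lay above the 3 PL8177 libraries. Cd96 stood at 0.894, 3.72 and 2.67 among sham libraries, at 4.29, 0.141 and 2.11 among placebo and at 0, 0.993 and 4.40 among PL8177. Its highest placebo and PL8177 libraries were close, and its lowest PL8177 library was at 0.

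**Figure D2:**
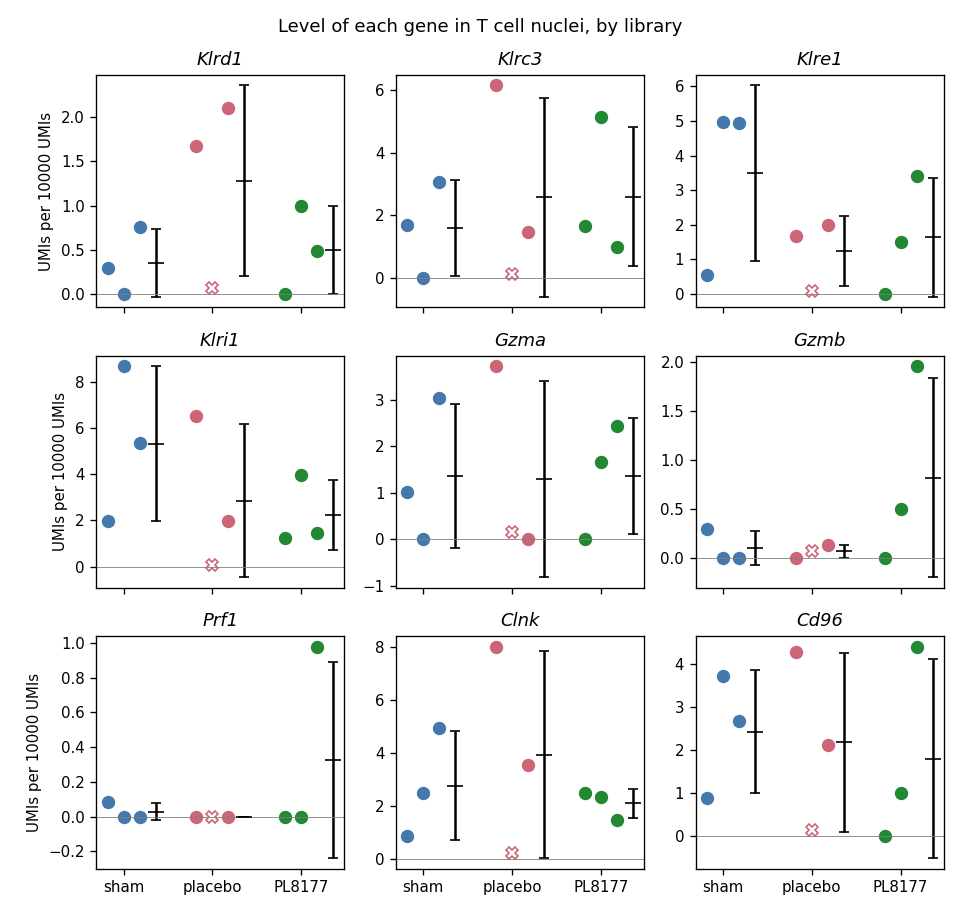
Level of each of the 9 genes in T cell nuclei (UMIs per 10000 UMIs), with 1 point per library, an open cross for placebo GR23, and the mean ± SD of 3 libraries in black beside each treatment. The libraries of the 3 treatments overlap for all 9 genes, and Gzmb and Prf1 rest on 20 and 4 UMIs.

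With all 9 libraries, no gene separated the treatments. All 27 comparisons of the 9 genes between 2 treatments had overlapping libraries, and the two-sided exact permutation p ran from 0.2 to 1 against a smallest possible p of 0.1 for 3 against 3. Among 9453 genes, 3.33% lay wholly higher and 3.98% wholly lower in sham than in placebo, 3.30% and 4.01% in PL8177 than in placebo, and 4.14% and 2.86% in PL8177 than in sham. The smallest exact p, 0.2, was that of Klri1, at 2.23 ± 1.51 in PL8177 against 5.32 ± 3.36 in sham (SD, n = 3). Its highest sham value, 8.67 in GR13, came from 7 UMIs in 3 of 19 nuclei. The mean share of nuclei with Klri1 was close in both, at 15.3% ± 11.2 in PL8177 and 14.7% ± 1.14 in sham (SD, n = 3). Klrd1 stood at 1.28 ± 1.08 in placebo, 0.353 ± 0.384 in sham and 0.494 ± 0.497 in PL8177 (SD, n = 3, exact p = 0.3 for both contrasts with placebo). Klre1 stood at 3.49 ± 2.54 in sham against 1.25 ± 1.01 in placebo and 1.64 ± 1.72 in PL8177 (SD, n = 3, exact p = 0.3 for both contrasts with sham). Gzmb stood at 0.817 ± 1.02 in PL8177 against 0.0654 ± 0.0659 in placebo (SD, n = 3, exact p = 0.4). Without GR23, placebo has 2 libraries and the smallest possible p is 0.2. Klrd1 then lay wholly lower in sham and in PL8177 than in placebo (1.89 ± 0.306, SD, n = 2), and Clnk wholly lower in PL8177 (2.09 ± 0.550, SD, n = 3) than in placebo (5.79 ± 3.15, SD, n = 2), each with an exact p of 0.2. The libraries of the other 8 genes overlapped in sham against placebo and those of the other 7 in PL8177 against placebo. Klrd1 was sparse, since 7 of its 9 UMIs in GR22 lay in 1 nucleus and sham and PL8177 libraries held 0 to 7 each. Of all 9453 genes, 12.2% lay wholly lower and 5.08% wholly higher in sham than in placebo without GR23, and 11.4% and 6.55% in PL8177.

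The edgeR quasi-likelihood test on counts summed per library tested 6 of the 9 genes. Klrd1, Gzmb and Prf1 did not pass its filter on low counts. None of the 6 was called at an adjusted p below 0.05 with an absolute log2 fold change above 1.5, nor was any of the 1828 genes tested (0.00% in each of the 3 comparisons), while 90, 18 and 22 genes had an unadjusted p below 0.05 in sham against placebo, PL8177 against placebo and PL8177 against sham. DESeq2 called 0 as well, with 72, 14 and 18 genes below 0.05 unadjusted. In sham against placebo, the log2 fold change was 1.27 ± 1.15 (SE) for Klre1 (edgeR adjusted p = 0.963), 0.70 ± 1.05 for Klri1 and 0.36 ± 1.34 for Gzma. It was -0.13 ± 1.12 for Cd96, -0.39 ± 1.07 for Klrc3 and -0.65 ± 0.96 for Clnk. In PL8177 against placebo, Klre1 (0.48), Gzma (0.26) and Klrc3 (0.23) had positive and Klri1 (-0.17), Cd96 (-0.31) and Clnk (-0.85) negative log2 fold changes, with SEs of 0.94 to 1.35. In PL8177 against sham, Klrc3 had a log2 fold change of 0.61 ± 1.09, and the other 5 lay between -0.87 ± 1.09 (Klri1) and -0.10 ± 1.41 (Gzma). The genes' median log2 fold change was 0.12 in sham against placebo and 0.03 in PL8177 against placebo, beside medians of -0.12 and -0.12 over all genes tested, and -0.19 in PL8177 against sham beside 0.05. The first 2 comparisons share the placebo libraries. SEs near 1 leave differences of several fold undetectable at this depth.

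Leaving out GR23 moved placebo upward for every tested gene. Clnk then had a log2 fold change of -1.54 ± 0.62 in sham and -1.44 ± 0.60 in PL8177 against placebo, with edgeR adjusted p of 0.996 and 0.974, and the placebo mean rose from 3.94 to 5.79 UMIs per 10000. Without GR23, Klri1 and Gzma turned from higher to lower in sham than in placebo, at -0.19 and -0.34, and Klrc3, Klre1 and Gzma turned in PL8177 against placebo, at -0.33, -0.26 and -0.38. In PL8177 against sham, which comes from the same fit, Clnk turned to 0.09. Without GR23 the median over the 6 genes was -0.67 in sham against placebo, with 1 of 6 positive, and -0.56 in PL8177 against placebo, with 0 of 6 positive, beside medians of -0.04 and -0.01 over all 1390 genes tested. No gene of the list was called without GR23. The part that the enterocyte markers of GR23 play in its low values was not tested.

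No related gene of the killer programme was called either. The compared lists held 77 genes with a row, of which 20 were tested in T cells, and 0 were called in any of the 3 comparisons (0.00% of all genes tested). Of 10 other killer receptors with a row, 1 was tested, of 14 other granule and killing genes 3, of 18 receptor signalling genes 6, of 15 regulators 5, of 9 residency genes 2, of 9 target side ligands 3 and of 2 secreted factors 0. In PL8177 against placebo, where 41.1% of all genes tested had a positive log2 fold change, it was positive in 3 of 3 granule and killing genes, 5 of 6 signalling genes, 4 of 5 regulators, 1 of 3 target side ligands, 3 of 6 T cell markers and 0 of 8 enterocyte markers. None of these had an unadjusted p below 0.05. Without GR23 fewer genes were tested, and the enterocyte markers turned while the regulators stayed mostly positive. The enterocyte markers had a median log2 fold change of -0.47 in PL8177 against placebo and -1.60 in sham against placebo, and of 1.62 and 0.02 over the 7 tested without GR23. Without GR23, 1 of 2 granule and killing genes, 2 of 4 signalling genes and 3 of 5 regulators were positive in PL8177 against placebo, beside 48.9% of all genes tested, and 6 of 7 enterocyte markers were.

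Within single nuclei, the genes were found together. In the 8 libraries other than GR23, 88 of 333 T cell nuclei (26.4%, 21.8 to 31.5) held at least 2 of the 9 genes, against 3 of 8782 enterocyte nuclei. Of the 333, 64 held exactly 1 gene, 35 held 2, 22 held 3, 16 held 4 and 15 held 5 to 8. By treatment, 27 of 120 sham nuclei (22.5%), 26 of 96 PL8177 nuclei (27.1%) and 35 of 117 placebo nuclei without GR23 (29.9%, and 45 of 802 or 5.61% with it) held at least 2. GR22 had the largest share of such nuclei at 53.8% and GR41, apart from GR23 (1.46%), the smallest at 9.09%. The 3 enterocyte nuclei each held 1 UMI of 2 of the genes and no T cell marker UMI.

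**Figure D3:**
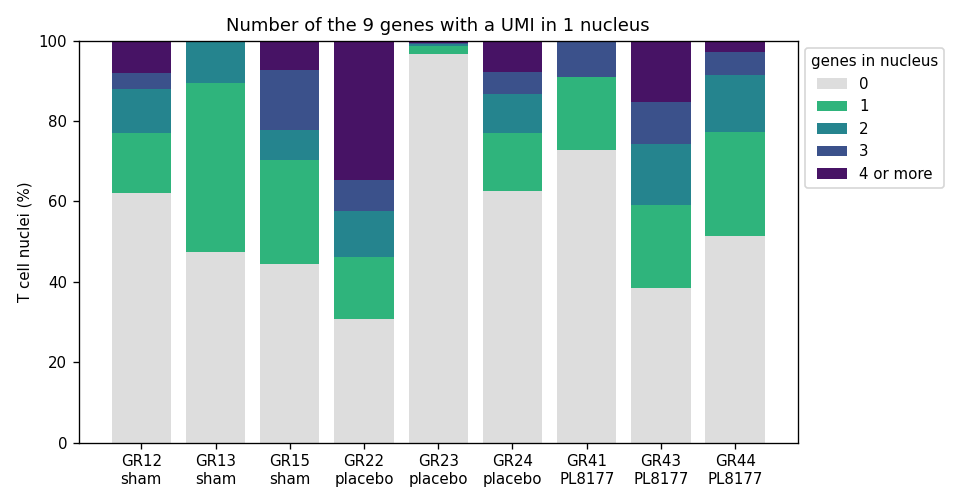
Share of T cell nuclei (percent) of each library with 0, 1, 2, 3 or at least 4 of the 9 genes. Nuclei with at least 2 of the genes make up 53.8% of GR22, 41.0% of GR43 and 9.09% to 29.6% of the other libraries apart from GR23, where they make up 1.46%.

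The 10 nuclei with the most UMIs of the genes held 4 to 8 of the 9 genes, and 7 of the 10 held at least 6. A placebo GR22 nucleus had 50 UMIs of 7 of the genes among its 3407 UMIs, namely 16 of Klri1, 11 of Clnk, 7 of Klrd1, 6 of Cd96, 5 of Klrc3, 3 of Gzma and 2 of Klre1. A sham GR12 nucleus had 35 UMIs of 8 genes among 3639, with 7 each of Klri1 and Gzma and 1 of Prf1. A GR22 nucleus of 12729 UMIs held 21 UMIs of 4 genes. Another GR12 nucleus had 10 UMIs of Gzma and 6 of Gzmb, which is 6 of the 7 Gzmb UMIs of that library. A GR23 nucleus held 21 UMIs of 6 genes among 1828. A single nucleus could thus set a library's level of a sparse gene.

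In pairs, finding 1 gene in a nucleus went with finding the others. For the 7 commoner genes (all but Gzmb and Prf1), the share of nuclei with the second gene was higher among nuclei with the first than among those without in 21 of 21 pairs, and the 95% intervals were apart in 18. Nuclei of 1 library share a rat, so these intervals describe the pooled nuclei and no test was made. Within GR23 alone the share was higher in 15 of the 21 pairs. Klri1 was in 31 of 54 nuclei with Klrc3 (57.4%, 43.2 to 70.8) and in 26 of 279 without it (9.32%, 6.18 to 13.4), higher in 7 of the 7 libraries that had Klrc3. Clnk was in 31 of 54 nuclei with Klrc3 (57.4%) against 31 of 279 without (11.1%). Nuclei with at least 2 of the genes were also deeper, with a median of 1141.5 UMIs against 688 in nuclei with none, so the pairs were counted again at equal depth.

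With each nucleus thinned to 300 UMIs, which left 304 of the 333 nuclei, 90 held at least 1 gene (29.6%) and 31 at least 2 (10.2%). Over the pooled nuclei the share was higher in 20 of the 21 pairs, with intervals apart in 3. Within libraries, more were higher than lower in 6 of the 21 pairs and more were lower than higher in 13, against 20 and 0 as counted. A library counted as lower when its few nuclei with the first gene held none of the second and its other nuclei held some. Sparse counts alone can give this, so the thinned directions cannot decide whether the genes went together within libraries. Klrd1, for example, was in 12 nuclei, 1 of them with Klri1, and the share of Klri1 was higher in 1 library and lower in 5. Klri1 was then in 9 of 24 nuclei with Klrc3 (37.5%, 18.8 to 59.4) and in 19 of 280 without (6.79%, 4.13 to 10.4), higher in 5 libraries and lower in none.

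Of the known receptor partners, Klri1 and Klre1 were found together with intervals apart as counted, and Klrc3 and Klrd1 with intervals that overlapped. Klri1 was in 24 of 51 nuclei with Klre1, its partner, which is 47.1% (32.9 to 61.5), and in 33 of 282 without it (11.7%, 8.19 to 16.0). Klrc3 was in 9 of 32 nuclei with Klrd1, its partner (28.1%, 13.7 to 46.7), and in 45 of 301 without it (14.95%, 11.1 to 19.5), with overlapping intervals and as many libraries higher as lower. For Klrd1 and Klre1 the intervals were apart as counted, with Klre1 in 14 of 32 nuclei with Klrd1 (43.8%, 26.4 to 62.3) against 37 of 301 (12.3%, 8.80 to 16.5). At equal depth the pairs were sparser, and the library directions carry the limit given above. Klri1 was then in 4 of 18 nuclei with Klre1 (22.2%, 6.41 to 47.6) against 24 of 286 (8.39%, 5.45 to 12.2), higher in 2 libraries and lower in 5. Klrc3 was in 1 of 12 with Klrd1 (8.33%, 0.211 to 38.5) against 23 of 292 (7.88%, 5.06 to 11.6). Klre1 was in 3 of 12 with Klrd1 (25.0%, 5.49 to 57.2) against 15 of 292 (5.14%, 2.90 to 8.33), with overlapping intervals and as many libraries higher as lower.

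**Figure D4:**
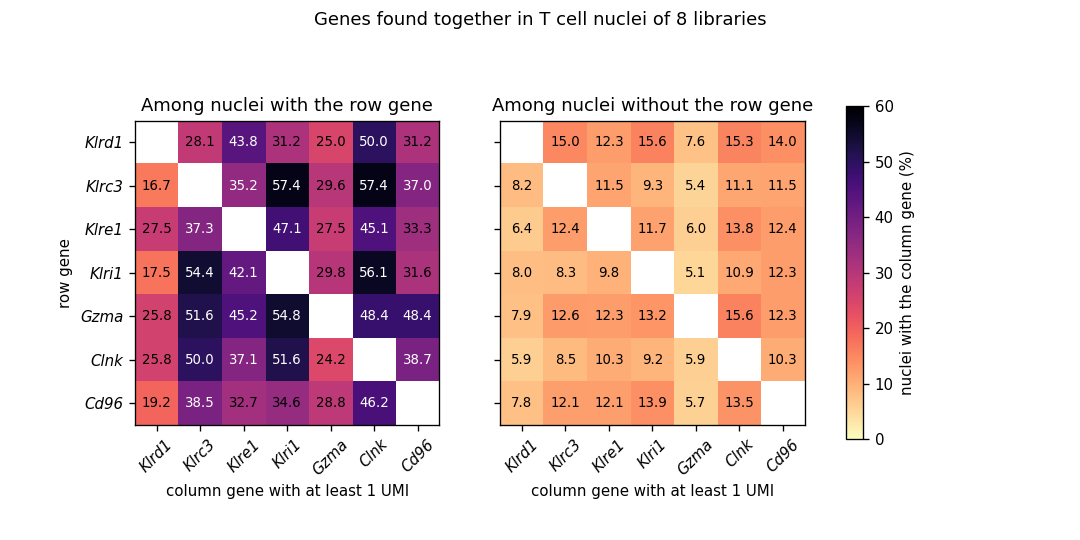
Share of T cell nuclei of 8 libraries (percent, without GR23) with at least 1 UMI of the column gene, among nuclei with the row gene (left) and among nuclei without it (right). Shares run from 16.7% to 57.4% on the left and from 5.07% to 15.6% on the right.

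By role, 117 of the 333 nuclei held a lectin receptor gene, 65 of them exactly 1, 32 exactly 2, 15 exactly 3 and 5 all 4. A granule gene (Gzma, Gzmb or Prf1) was in 28 of the 117 (23.9%, 16.5 to 32.7) and in 10 of the 216 without a lectin receptor (4.63%, 2.24 to 8.35). Clnk was in 40.2% of nuclei with a lectin receptor against 6.94% of those without. Cd96 was in 29.9% against 7.87%. Read the other way, 28 of 38 nuclei with a granule gene (73.7%, 56.9 to 86.6) held a lectin receptor, while 89 of the 117 receptor nuclei held no granule UMI. Shares by role are as counted and were not counted again at equal depth. The part of depth in them was not tested.

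Nuclei with at least 2 of the genes were compared with nuclei with none for other killer lymphocyte genes. The 88 nuclei with at least 2 held 168917 UMIs and the 181 with none 235359, with medians of 1141.5 and 688 UMIs per nucleus. Of 7855 other genes with at least 10 UMIs, 47.0% were higher in the first over the pooled nuclei, 4.40% were higher in at least 6 of 8 libraries and 6.45% were lower in at least 6. The genes named from here on are compared as levels per 10000 UMIs over pooled nuclei, with counting intervals and without a test. Of the nuclei with at least 2 of the genes, GR13 and GR41 gave 2 each and GR15 and GR44 gave 8 each. The direction of a gene in such a library can rest on few UMIs.

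Among other killer receptors, Cd244 (2B4) stood at 2.43 (1.74 to 3.29) in nuclei with at least 2 of the genes and at 0.340 (0.147 to 0.670) in nuclei with none, 7.14-fold higher and higher in 8 of 8 libraries. Klrb1b, a lectin-like receptor of the NKR-P1 family, stood at 1.12 against 0.382, higher in 5 libraries and lower in 2. Klrk1, the NKG2D gene that lies between Klrd1 and Klrc3, had 8 and 6 UMIs. Klra2 went the other way, with 0 UMIs against 9. Of the 7 other killer receptor genes with at least 10 UMIs, 5 were higher, 1 of them (Cd244) in at least 6 libraries, and none was lower in at least 6.

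Of the other granule and killing genes, 6 of 10 were higher, near the 47.0% of all genes, and 1 was higher in at least 6 libraries. This was Rab27a, which serves granule release, at 2.49 (1.79 to 3.36) against 1.57 (1.11 to 2.17). Its intervals overlapped, and at 300 UMIs per nucleus it was in 6.10% of nuclei with at least 2 of the genes and 9.04% of those with none. Gzmm had 11 UMIs against 1. Srgn, the proteoglycan core of granules, stood at 2.31 against 0.850 but was higher in 3 libraries and lower in 4. Lower over the pooled nuclei were Cst7 (0 UMIs against 7), Unc13d (0.118 against 0.382), Ctsc (0.414 against 0.552) and Lamp1 (2.19 against 2.55). Unc13d was lower in 3 libraries and higher in 0. Among receptor signalling genes 11 of 17 were higher, 2 of them in at least 6 libraries, and 1 was lower in at least 6. Vav3, an exchange factor below immune receptors, stood at 7.58 (6.32 to 9.01) against 2.51 (1.91 to 3.23), higher in 8 of 8 libraries. Sh2d1b (EAT-2), which serves Cd244 and its relatives, stood at 1.78 against 0.637, higher in 7 libraries. Fyn was lower, at 3.61 against 6.12 and lower in 7 libraries.

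Of the regulators of the killer programme, 11 of 14 were higher over the pooled nuclei, but 1 (Tbx21) was higher in at least 6 libraries and 2 (Zeb2 and Il15ra) were lower. Tbx21 (T-bet) stood at 1.95 (1.34 to 2.74) against 0.297 (0.120 to 0.613), 6.57-fold higher and higher in 8 of 8 libraries. Il2rb, the shared receptor chain for IL-2 and IL-15, stood at 2.07 (1.44 to 2.88) against 0.170 (0.0463 to 0.435), 12.2-fold higher, and was higher in 5 libraries and lower in none. Il15ra, which presents IL-15, stood at 1.07 against 1.27. Runx3 stood at 3.20 against 1.53, with 4 libraries higher and 4 lower. Zeb2, a factor of effector lymphocytes and of macrophages, stood at 0.533 (0.244 to 1.01) against 8.16 (7.04 to 9.40), lower in 7 of 8 libraries and higher in none. At 300 UMIs per nucleus, Tbx21 was in 7.32% of nuclei with at least 2 of the genes and 1.81% of those with none, and Zeb2 in 1.22% and 13.3%. Cd244 was in 12.2% and 0%, Vav3 in 20.7% and 9.04%, and Il2rb in 7.32% and 0%.

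Tissue residency genes were higher in 5 of 6 cases, 3 of them in at least 6 libraries and none lower in at least 6, with a median log2 ratio of 1.84 (0.1 added to each level), against -0.04 over all 7855 genes. Itgae, the CD103 chain that binds E-cadherin on epithelium, stood at 2.96 (2.20 to 3.90) against 0.722 (0.421 to 1.16), higher in 7 libraries and lower in none. Itga1 (CD49a) stood at 2.13 (1.49 to 2.95) against 0.340 (0.147 to 0.670), higher in 6 and lower in 1. Ahr, the aryl hydrocarbon receptor that maintains gut lymphocytes, stood at 3.79 (2.92 to 4.84) against 1.02 (0.653 to 1.52), higher in 7 and lower in none. Cd69 stood at 1.36 against 0.297, higher in 4 and lower in 2.

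T cell genes split. Of 10 T cell markers, 4 were higher over the pooled nuclei, beside 47.0% of all genes, and 3 were higher in at least 6 libraries. Of 4 T cell subset genes, 1 was higher. Lck stood at 1.12 against 0.807, higher in 6 libraries and lower in 1. Cd247, the zeta chain of T cell and natural killer receptors, stood at 7.22 (6.00 to 8.62) against 3.48 (2.77 to 4.32) and Themis at 10.4 (8.94 to 12.1) against 4.08 (3.30 to 4.98), higher in 7 and 6 libraries. Skap1 stood at 12.8 against 13.0 and Cd3e at 1.18 against 0.722, higher in 1 library and lower in 3. Lef1 and Tcf7, factors of naive and memory T cells, stood at 2.96 against 7.99 and 1.89 against 3.40. Each was lower in 4 libraries, and they were higher in 2 and 3. Bcl11b stood at 2.25 against 4.29, lower in 5 libraries and higher in 3. Cd4 stood at 0.296 against 0.807, lower in 5 libraries and higher in none. Gata3 went the other way, at 1.30 against 0.552, higher in 4 libraries and lower in 2.

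All 3 B cell and all 3 myeloid markers with at least 10 UMIs were lower over the pooled nuclei with at least 2 of the genes than in nuclei with none. Of all genes, 47.0% were higher. By library, 0 of the 3 B cell and 1 of the 3 myeloid markers (Mrc1) were lower in at least 6, beside 6.45% of all genes. Bank1 was higher in 1 library and lower in 1. Nuclei with exactly 1 gene are given beside both classes. The macrophage genes Csf1r and Mrc1 had 39 and 28 UMIs in nuclei with none, 15 and 3 in nuclei with 1, and 0 and 0 in nuclei with at least 2, where 3 UMIs would have made a level of 0.178 per 10000. The B cell gene Bank1 stood at 0.850 in nuclei with none, 2.42 in nuclei with 1 and 0.355 in nuclei with at least 2. Zeb2 went the same way, at 8.16, 9.26 and 0.533. The 64 nuclei with exactly 1 gene are part of the 152 counted as holding the genes. They had more Bank1 than nuclei with none, with intervals apart (1.55 to 3.59 against 0.519 to 1.31). For Zeb2, Csf1r (1.51 against 1.66) and Mrc1 (0.302 against 1.19) the intervals overlapped. Summed T cell markers stood at 47.8, 40.2 and 50.6 UMIs per 10000 in the 3 classes, and summed enterocyte markers at 28.8, 25.5 and 24.7. Kit, which mast cells and innate lymphoid cells carry, stood at 1.78 (1.20 to 2.54) in nuclei with at least 2 against 0.382 (0.175 to 0.726) in nuclei with none. The mast cell protease gene Mcpt1 stood at 0.651 against 0.765, with 11 and 18 UMIs. Of the other mast cell markers, none reached 10 UMIs. The part of these other cells in the values of the nuclei classes was not tested.

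**Figure D5:**
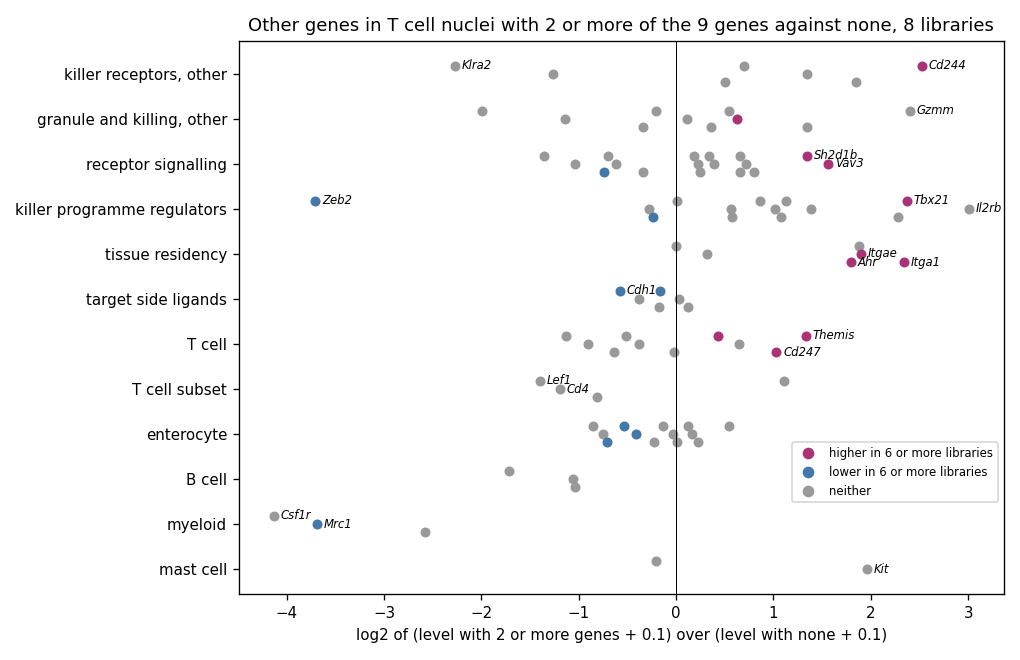
Log2 ratio of the level in T cell nuclei with at least 2 of the 9 genes over the level in nuclei with none (0.1 UMIs per 10000 added to each), by gene list, for listed genes with at least 10 UMIs in 8 libraries (the 1 tuft gene is left out). Purple marks genes higher and blue genes lower in at least 6 of 8 libraries, with Cd244, Tbx21 and Vav3 higher in 8 of 8 and Zeb2 lower in 7. Most listed genes are grey, that is neither.

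Of 6 target side genes, 2 were higher over the pooled nuclei. None was higher and 2 were lower in at least 6 libraries. Cdh1, which encodes the E-cadherin that CD103 and KLRG1 bind, stood at 4.08 against 6.16 and was lower in 7 of 8 libraries. Clec2g, of the family of lectin-like ligands, stood at 4.80 against 5.40, lower in 7. Nectin3 stood at 1.48 against 1.44.

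The genes most like the members in their pattern over nuclei were ranked by the phi coefficient with the detection of at least 1 of the 9 genes, over 304 nuclei of 8 libraries thinned to 300 UMIs, among 2564 genes found in at least 10 nuclei. The nuclei share libraries, so phi is a description. St6galnac3, a sialyltransferase, led with a phi of 0.34 and was in 44.4% of nuclei with a member gene and 13.1% of those without. Sema4d, a semaphorin of lymphocytes, followed with 0.33 (31.1% against 6.54%), then Chn2, a Rac GTPase-activating protein, with 0.28 (24.4% against 5.14%). Agfg1, Chst11, St3gal5, Srgap3, Gpx4, Sept11 and Jund made up the rest of the first 10, with phi of 0.24 to 0.27. With GR23 included, 5 of the 10 stayed in the list.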

How the data were processed

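Libraries of 10x 3′ chemistry were aligned by the authors with Cell Ranger 6.0.1 to Rnor 6.0, introns included, ambient RNA was removed with CellBender, and nuclei were filtered, integrated and clustered in Seurat 4.0.3. The deposited values are UMI counts per gene and nucleus, in 1 table per treatment and cell type, without normalization. The placebo T cell table stops within a gene after 15108 of 17388 genes, and T cell comparisons used these 15108. No value column was left unmapped. The members and lists were chosen with earlier results of these data known.

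Counts were summed per library tag and treatment and tested in T cells with edgeR 4.0.16 (quasi-likelihood, TMM, filterByExpr, limma 3.58.1, R 4.3.3) in 1 fit of 3 treatments, with Benjamini-Hochberg adjustment. Calls needed an adjusted p under 0.05 with a log2 fold change beyond 1.5 in size. DESeq2 1.42.0 was an alternative, and both were checked on simulated counts. Levels per 10000 UMIs were compared by two-sided exact permutation tests (scipy 1.17.1). Since the labels do not tie tags to rats, p-values measure the spread between tags. Shares have Clopper-Pearson and levels Poisson 95% intervals, and a count of 0 was read against 3 UMIs. Shares, except those by role, were also counted with nuclei thinned to 300 UMIs. Doublets were scored with Scrublet (scanpy 1.11.5) in 9800 nuclei, which marked 8 of 1018 T cell nuclei (0.786%), all in GR23, and these were kept except in 1 alternative. Named genes were the members, list genes with at least 10 UMIs and the 10 genes with the highest phi. Alternatives were another normalization, no filter on low counts, each library left out, T cell marker nuclei only, nuclei with at least 500 genes, thinning, no doublets and the list without Cd96 and Clnk. T cell over enterocyte levels, exact tests and list directions without GR23 were added after seeing the data.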

Additional observations from a re-analysis of the deposited data

How the results depend on the processing

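The count of called T cell genes stayed at 0 under most alternatives. Without the filter on low counts it was 33 in sham against placebo and 4 in PL8177 against placebo. With each library left out it ranged from 0 to 0 against placebo in both comparisons and from 0 to 1 in PL8177 against sham, where the 1 was Clca4 without GR23. The fit on thinned nuclei tested none of the 9 genes. With T cell marker nuclei only, log2 fold changes turned for Gzma (-0.80) in sham against placebo, for Gzma (-0.82), Klre1 (-0.13) and Klri1 (0.12) in PL8177 against placebo, and for Clnk (0.18) and Cd96 (0.0044) in PL8177 against sham. With nuclei of at least 500 genes, Cd96 was 0.057 in sham against placebo.

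Leaving out 1 library turned 33 of 162 log2 fold changes. In sham against placebo the ranges were -1.04 to 1.40 for Klrc3, -0.19 to 2.30 for Klri1, -0.58 to 3.28 for Gzma, -1.78 to 0.43 for Clnk and -0.9996 to 0.88 for Cd96. In PL8177 against placebo they were -0.94 to 2.01 for Klrc3, -0.36 to 1.09 for Klre1, -1.05 to 1.45 for Klri1, -0.42 to 3.17 for Gzma, -1.44 to 0.23 for Clnk and -1.74 to 0.68 for Cd96. In PL8177 against sham they were -0.48 to 1.07 for Klrc3, -1.59 to 0.049 for Klre1, -0.60 to 0.75 for Gzma, -0.83 to 0.89 for Clnk and -1.57 to 0.41 for Cd96. The cause was not tested.

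The share of T cell nuclei with at least 1 of the genes was 29.6% in sham and 30.3% in PL8177 with nuclei thinned to 300 UMIs, and 46.8% in placebo with T cell marker nuclei only. With each library left out it ranged from 40.9% to 54.3% in sham, from 5.63% to 44.4% in placebo and from 40.4% to 55.4% in PL8177. The share with at least 2 of the genes was 6.48% in thinned sham nuclei, and ranged from 20.4% to 24.8% in sham, 3.38% to 29.9% in placebo and 17.5% to 32.4% in PL8177. Leaving out GR23 gave the upper end in placebo for both shares. No paired analysis was possible because the treatments were given to different rats and the labels give no number that pairs them. Depth limits the sparse genes most, with Gzmb at 20 and Prf1 at 4 T cell UMIs.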
